A study of Mus musculus with 28 samples.

Results

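The genes described here encode the subunits of the glutamate and GABA receptors, and they were followed in hippocampal RNA of mice given the histone deacetylase inhibitor trichostatin A (TSA), an unfamiliar environment or both. Members were all genes of the array whose symbol begins with Gria, Grid, Grik, Grin, Grm, Gabr or Gabbr in the form used for receptor subunits. This gave 42 of the 19938 genes tested, by symbol and not by any measured value. One of the 42, Grid2ip, matches the symbol rule but encodes delphilin, a protein that binds a delta receptor and is not a receptor subunit. Family counts below cover the genes measured, and other members of these families were not analysed here.

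The series holds 28 arrays (Affymetrix Mouse Gene 1.0 ST) in 8 groups, and each array carried RNA pooled from the hippocampi of 3 to 4 female mice aged 3 months. All mice were C57/DBA F1 hybrids, either cbp+/- (heterozygous for the gene of the histone acetyltransferase CBP) or their wild-type littermates. For each genotype there were 3 arrays after novelty with TSA, 3 after TSA in the standard cage, 3 after novelty with vehicle and 5 standard-cage controls. The TSA dose was 2.4 mg/kg into the peritoneum, and hippocampi were collected 75 min after it. Novelty was 1 h alone in a white box that held toys and tubing, beginning 15 min after the injection in TSA-treated mice. Control replicates 1 and 2 of each genotype came from naive mice and replicates 3, 4 and 5 from mice injected with the DMSO and saline vehicle. The control arrays also belong to a parallel series. Replicates are labelled as independent biological pools, so the spread given here is the spread between pools. In pooled whole tissue, fewer cells of a type and less RNA per cell cannot be told apart.

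Ionotropic receptors are ion channels built of several subunits. AMPA receptors carry the fast excitatory current, NMDA receptors admit calcium when transmitter release and depolarisation coincide, and kainate receptors act on both sides of the synapse. Metabotropic glutamate receptors and GABA-B receptors signal through G proteins, while GABA-A receptors are chloride channels of alpha, beta and gamma or delta subunits that carry synaptic and tonic inhibition. The subunit makeup sets where these receptors sit and how they open, and the hippocampus is a standard tissue for their study in learning.

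The promoters of some genes named below are given first, since TSA and CBP both act on chromatin. Grik3, Grik2 and Grm7 passed in a comparison below. Gabra2 had the smallest p in the averaged TSA comparison, where it did not pass. The sequences are from RefSeq (GRCm38.p6) and cover the 250 bases before the first listed transcript start, read 5′ to 3′ on the strand of the gene. Of the 42 genes, 32 matched the promoter table, and Gria3, which also passed in a comparison below, was not among these. Capitals mark a GC box (GGGCGG, or CCGCCC on the other strand) or the half-site of the cAMP response element that CREB, a partner of CBP, binds (TGACG, or CGTCA). They are the promoter of Grik3 on the plus strand of chr4:125490446-125490695, that of Grik2 on the minus strand of chr10:49788755-49789004, that of Grm7 on the plus strand of chr6:110645262-110645511 and that of Gabra2 on the minus strand of chr5:71095850-71096099.
Grik3: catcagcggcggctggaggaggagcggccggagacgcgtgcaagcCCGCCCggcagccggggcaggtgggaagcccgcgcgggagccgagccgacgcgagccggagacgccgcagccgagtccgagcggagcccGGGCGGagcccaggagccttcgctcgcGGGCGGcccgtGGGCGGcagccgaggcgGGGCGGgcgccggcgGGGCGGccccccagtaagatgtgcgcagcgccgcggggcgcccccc
Grik2: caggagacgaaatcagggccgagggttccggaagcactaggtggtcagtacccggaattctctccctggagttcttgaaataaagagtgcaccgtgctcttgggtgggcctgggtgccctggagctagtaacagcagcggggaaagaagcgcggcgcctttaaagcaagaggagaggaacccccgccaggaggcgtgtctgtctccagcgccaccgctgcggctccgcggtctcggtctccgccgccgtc
Grm7: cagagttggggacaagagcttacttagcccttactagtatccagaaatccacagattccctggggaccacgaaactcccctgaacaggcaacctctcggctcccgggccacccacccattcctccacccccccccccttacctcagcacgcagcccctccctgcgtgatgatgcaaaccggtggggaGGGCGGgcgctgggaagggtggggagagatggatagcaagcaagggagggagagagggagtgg
Gabra2: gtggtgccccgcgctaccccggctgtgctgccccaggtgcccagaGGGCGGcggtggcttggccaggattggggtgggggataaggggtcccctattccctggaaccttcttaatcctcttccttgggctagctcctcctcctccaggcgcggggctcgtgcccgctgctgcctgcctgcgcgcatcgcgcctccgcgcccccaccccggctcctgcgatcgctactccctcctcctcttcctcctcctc
The Grik3 window was 82.0% G and C and held 6 GC boxes. The Gabra2 window held 1 GC box at 70.0% G and C, the Grm7 window 1 at 62.0%, and the Grik2 window none at 62.8%. Among the 32 matched promoters the median share of G and C was 62.2% (35.6% for Gabrg1 to 82.0% for Grik3), against 52.0% over 27025 mouse promoters. GC boxes stood in 18 of the 32 windows (56.2%) and in 32.9% of all promoters. The CRE half-site was found in 1 of 32 (3.12%), the promoter of Gabrr1, against 17.9% of all promoters. No window held the full element TGACGTCA, which 1.62% of all promoters hold, and TATAAA stood in 3 (9.38%) against 13% of all. The full element contains the half-site, so these counts overlap. These are letter matches in a short window and say nothing of binding.

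Levels are log2 values normalised across the arrays by the authors, 1 per gene and array, and are compared between arrays for a given gene only. An alternative that dropped low values used the median over all genes of a gene's mean level, 6.10, which does not measure detection. Under it were 11 of the 42 genes: Gabra6, Gabre, Gabrp, Gabrq, the 3 rho genes Gabrr1, Gabrr2 and Gabrr3, Grid2ip, Grin3b, Grm4 and Grm6. In controls Gria1, the GluA1 subunit gene, averaged 11.17 ± 0.23 in cbp+/- and 11.19 ± 0.26 in wild-type arrays (SD, n = 5 each). Grin2a and Grin2b, which set the kinetics of NMDA receptors, averaged 10.09 ± 0.36 and 10.01 ± 0.11 in cbp+/- controls and 10.18 ± 0.31 and 10.03 ± 0.09 in wild-type controls. Gabra5, a subunit of extrasynaptic GABA-A receptors typical of the hippocampus, averaged 10.29 ± 0.14 in cbp+/- and 10.31 ± 0.19 in wild-type controls. In each of these 4 genes the genotypes differed by less than the spread between pools.

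The arrays of this series were divided into 4 sets. Set 1 is the 4 naive arrays, as their titles label them. Sets 2, 3 and 4, which no label names, each hold 1 vehicle control and 1 replicate of every TSA and novelty group of both genotypes. Sets 2, 3 and 4 were drawn from correlations between these same arrays, so a large share of variance for set is in part built in. The shares below are read with that limit. There are 8 groups and 4 sets, and the share of group was not computed over all genes. Array set accounted for a median of 66.0% of a gene's variance over the 42 genes (10.3% for Gabra6 to 95.1% for Grik5) and 43.8% over all genes, while group accounted for a median of 18.2% in the 42. In 26 of the 42 genes (61.9%) the share of set was over 50%, against 43.4% of all genes. The highest of the 4 set means was that of set 1 in 17 genes, set 2 in 14, set 3 in 10 and set 4 in 1.

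Genes of different receptors followed the sets in different ways. All 4 AMPA genes had their highest mean in set 1, the naive arrays. Gria2, whose subunit makes AMPA receptors impermeable to calcium, had set means of 11.19 in set 1 and 10.95, 10.97 and 10.92 in sets 2, 3 and 4. Of the 6 NMDA genes, 4 were highest in set 2 and 2 in set 3, and 5 were lowest in set 4. The 4 set means of Grin2a were 10.14, 10.47, 10.39 and 9.64. Gabra3, a GABA-A alpha subunit gene, was low in set 3 alone, at 8.16 against 8.83 to 9.06 in the other sets. Both GABA-B genes were highest in set 2 and lowest in set 4, Gabbr2 at 10.13 and 9.42. A range of 0.72 log2 between sets, as in Gabbr2, is larger than any averaged effect of TSA, novelty or genotype in the 42 genes. Every comparison is therefore given from a limma fit of group means without the sets and from a fit with array set as a block. Over all genes the residual SD had a median of 0.184 without the block and 0.126 with it. The sets were known from earlier results of these data, so p-values and intervals with the block rest on sets drawn from the same arrays.

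**Figure D1:**
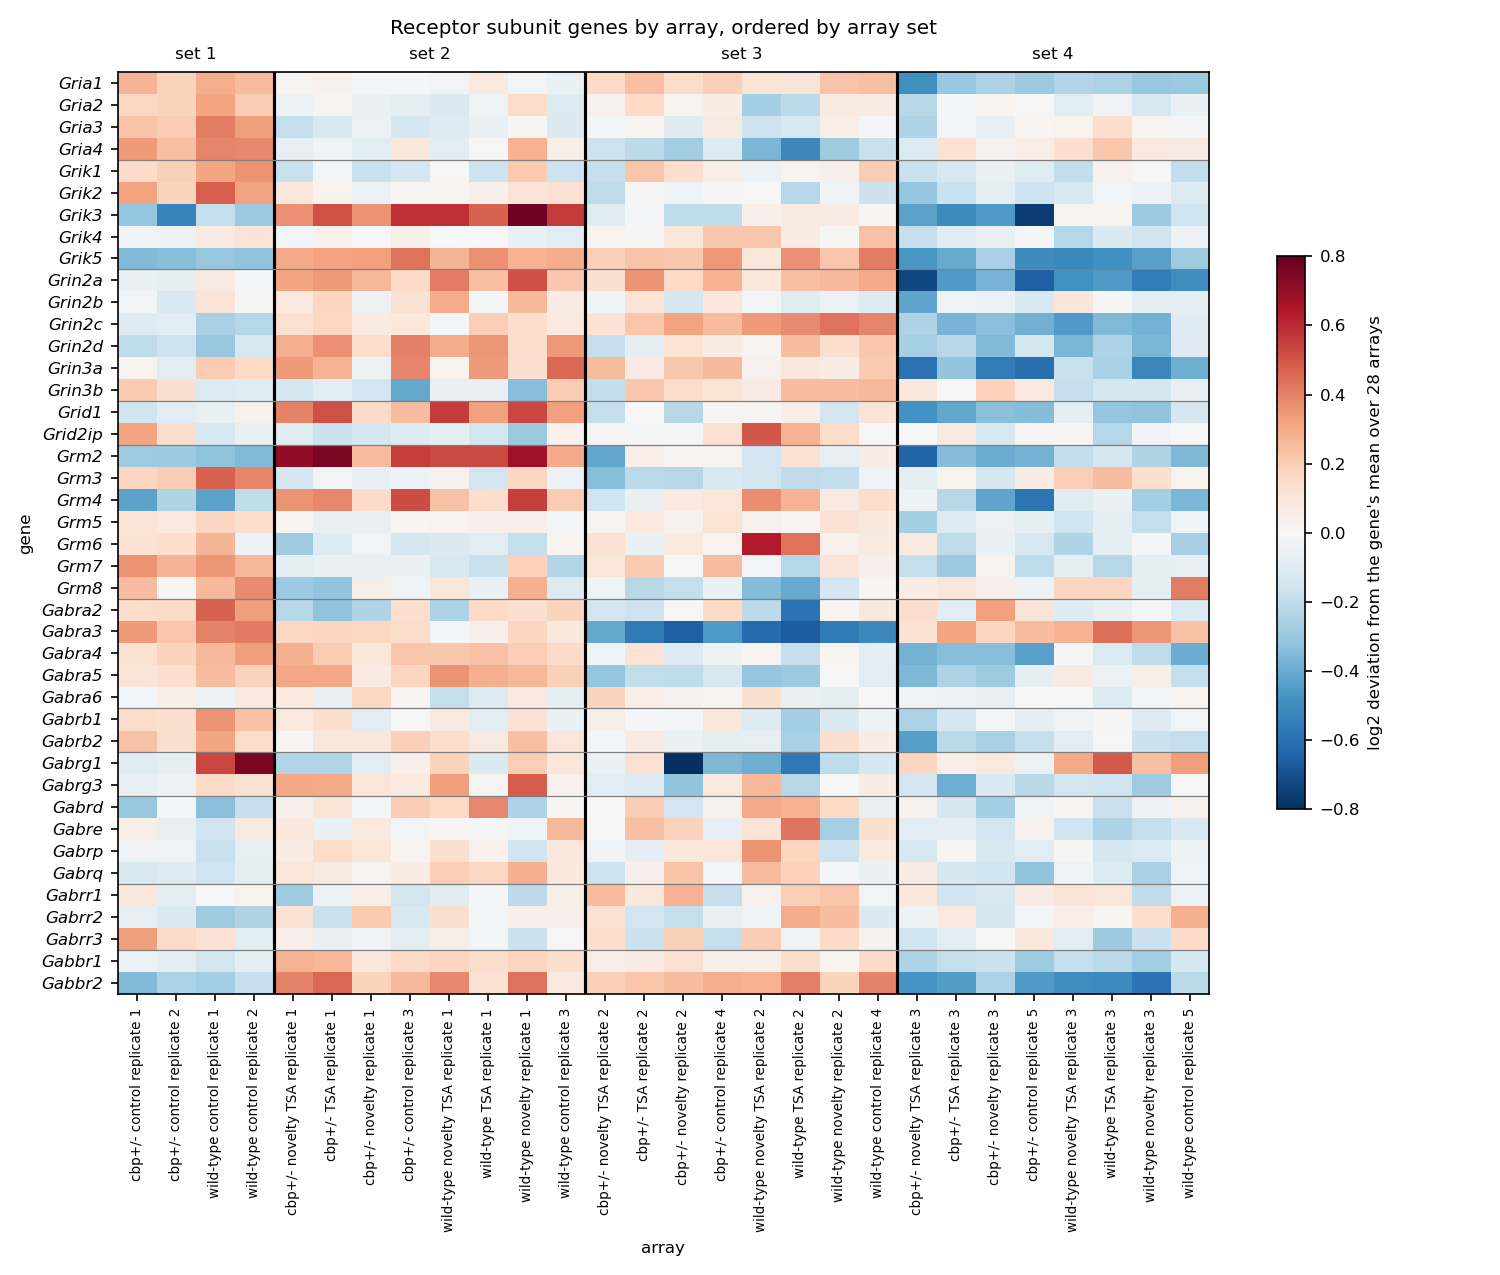
Each row is a receptor subunit gene, grouped by receptor, and each column an array, ordered by array set and then by group. Colour gives the log2 deviation from the gene's mean over the 28 arrays. Columns of a set look alike across groups, for example Grik3 and Grm2, raised in set 2, and Gabra3, low in set 3.

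The level of Crebbp, the gene disrupted in cbp+/- mice, was 9.45 ± 0.27 in cbp+/- arrays and 9.25 ± 0.31 in wild-type arrays (SD, n = 14 each). No source used here places its probes relative to the disrupted part, and the genotype labels are not checked by it. In 3 arrays choroid plexus markers were raised by 1.22 to 1.68 log2 over the mean of all arrays: cbp+/- TSA replicate 1, cbp+/- control replicate 3 and wild-type novelty TSA replicate 1, all in set 2. Array medians ran between 5.46 and 5.63. The activity genes used as a check of the novelty treatment rose in 6 of 6 cases, by 0.87 to 1.70 with array set as a block.

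The first comparison asked whether TSA changed the transcripts of these receptors. No receptor subunit gene passed an adjusted p of 0.05 when TSA was averaged over both genotypes and both housings, in either fit. With array set as a block the changes ran between -0.22 for Gabra2 and 0.13 for Gabrd, with a median of -0.01, against 0.003 over all genes. In this fit 18 genes were higher and 24 lower after TSA. The 95% intervals of 41 of the 42 genes lay within a 1.2-fold change in either direction, as did those of 91.1% of all genes, and the exception was Gabra2. Without the block 27 of the 42 intervals did.

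In the background, 0.662% of all genes passed the averaged TSA test without the block and 4.51% with it, against 0 of the 42 in both. Under an unadjusted p of 0.05 without the block were 4 of the 42 (9.52%), Gabra2, Gabrd, Gria2 and Grm7, against 8.73% of all genes. With the block these were 2 of the 42 (4.76%), Gabra2 and Gabrd, against 15.9% of all genes.

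Gabra2 encodes the alpha2 subunit of synaptic GABA-A receptors. In cbp+/- novelty its 3 arrays with TSA had 9.44, 9.53 and 9.81, against 9.43, 9.67 and 9.999 without TSA. These overlapped. In the cbp+/- standard cage the arrays with TSA had 9.35, 9.51 and 9.58, against 9.82, 9.82, 9.81, 9.83 and 9.77 in controls. These 2 groups did not overlap. In wild-type novelty the arrays with TSA had 9.42, 9.47 and 9.57, against 9.80, 9.69 and 9.66 without TSA, again without overlap. In the wild-type standard cage the arrays with TSA had 9.83, 9.08 and 9.61, against 10.14, 10.01, 9.85, 9.76 and 9.56 in controls, and these overlapped too. What share of all genes shows no overlap between such groups was not computed. Over all arrays Gabra2 had 9.08 to 9.83 with TSA and 9.43 to 10.14 without, which overlapped. The averaged change was -0.26 ± 0.08 without the block (SE, limma, adjusted p = 0.144) and -0.22 ± 0.07 with it (adjusted p = 0.0781), with a 95% interval of -0.37 to -0.07. Within sets, Grik5 was lower with TSA in 10 of 12 pairs of arrays and Grin2b higher in 10 of 12. The share of all genes with such pair counts was not computed. Gabra2 was lower in 10 of 12 pairs too, with a mean difference of -0.21 in set 2, -0.34 in set 3 and -0.10 in set 4. It passed in 3 of 28 fits that each left out 1 array, with adjusted p of 0.0246 without wild-type control replicate 5, 0.0171 without wild-type TSA replicate 1 and 0.0346 without cbp+/- novelty replicate 1. In the blocked fit 4 of 7 pyramidal neuron markers were higher and 3 lower with TSA, with a median of 0.03, and 1 passed, Neurod6, which fell by 0.26. Of 7 dentate granule neuron markers 3 were higher and 4 lower, with a median of -0.04, and 1 passed, Lct, which fell by 0.29. The mean deviation of the granule list ran between -0.27 and 0.08 in arrays with TSA and between -0.15 and 0.23 in arrays without. That of the pyramidal list ran between -0.24 and 0.38 with TSA and between -0.30 and 0.42 without. Their part in the values of Gabra2 was not tested.

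**Figure D2:**
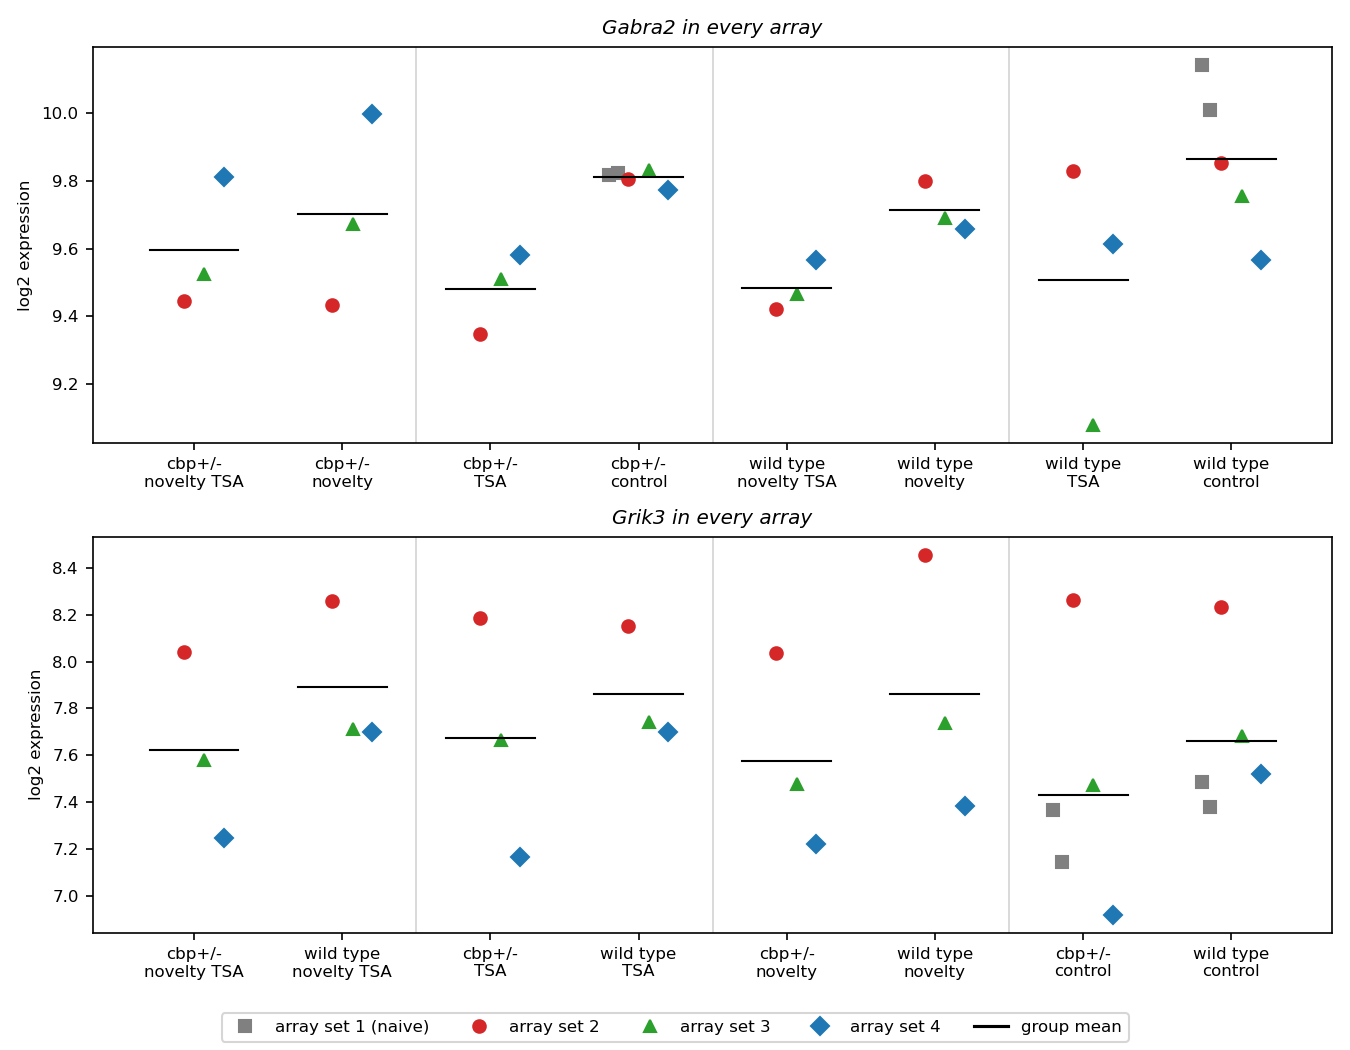
Log2 level of Gabra2 (top) and Grik3 (bottom) in every array, by group, with symbols for the array set and a line at the group mean. For Gabra2 the groups stand in pairs of TSA and no TSA, and the 4 TSA means (9.48 to 9.59) lie under the 4 means without TSA (9.70 to 9.87). For Grik3 they stand in pairs of cbp+/- and wild type, and the arrays of set 2 lie above all others of their group.

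The receptor groups showed small changes after TSA with the block. All 4 AMPA genes were lower, by medians of -0.05 with the block and -0.11 without, and none passed. Without the block, the side without TSA includes the naive arrays, in which these 4 genes were highest. Within sets Gria1 was higher with TSA in 8 of 12 pairs and Gria2 in 7 of 12, while Gria3 and Gria4 were each lower in 7 of 12. Gria1 changed by -0.01 ± 0.04 and Gria2 by -0.06 ± 0.04, and Gria4, with the largest AMPA change, by -0.07 ± 0.05 (adjusted p = 0.582). Among 5 kainate genes 4 were lower with the block and 3 without. Grik5, a high-affinity subunit, changed by -0.07 ± 0.04 with the block (adjusted p = 0.432) and by 0.02 without. The 6 NMDA genes ran between -0.04 and 0.04, Grin2a at -0.01 ± 0.04 and Grin2b at 0.02 ± 0.05. Grid2ip changed by 0.05 ± 0.05.

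Among 7 metabotropic glutamate receptor genes 4 were lower after TSA. Grm8, a presynaptic group III receptor, had the largest of these changes, -0.10 ± 0.06 (adjusted p = 0.481), and Grm5, a postsynaptic group I receptor, changed by -0.03 ± 0.03. Of 5 GABA-A alpha genes 4 were lower, including Gabra5 at -0.02 ± 0.05. Gabrb2, the only gene with more than 1 row, changed by -0.05 ± 0.05 in the row used and by -0.13 and -0.18 in its other 2 rows. Gabrg1 changed by 0.05 ± 0.09 with the block and by -0.01 without.

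All 4 of the genes Gabrd, Gabre, Gabrp and Gabrq were higher after TSA in both fits, with a median of 0.07 with the block, and none passed. Gabre, Gabrp and Gabrq are among the genes under the median level of 6.10. Gabrd, the delta subunit of extrasynaptic receptors that carry tonic inhibition in dentate granule cells, was highest of the 42 at 0.13 ± 0.06 (adjusted p = 0.222, 95% interval 0.02 to 0.25). It was higher with TSA in 9 of 12 within-set pairs, as were Gabrq and Gabra4, while Gabre was higher in 7 and Gabrp in 6. The rho gene Gabrr1 changed by 0.04 ± 0.05. Gabbr1 and Gabbr2, which together form the GABA-B receptor, changed by 0.02 ± 0.04 and -0.002 ± 0.054, and without the block Gabbr2 stood at 0.06.

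In the 4 backgrounds taken singly no receptor subunit gene passed for TSA, in either fit, against 0% of all genes without the block and 0.13% with it in at least 1 background. At an unadjusted p of 0.05 there were 4 of the 42 (9.52%) without the block against 10.3% of all genes, and 3 (7.14%) with the block against 24.2%. By smallest p without the block, Gabra2 led in the standard cage, with -0.33 ± 0.14 in cbp+/- and -0.36 ± 0.14 in wild type. Gabrd led in cbp+/- novelty with 0.17 ± 0.14, and Gabrp, a pi subunit gene, in wild-type novelty with 0.31 ± 0.10. Adjusted p of these 4 was 0.935 or higher. With the block Gabrp in wild-type novelty stood at 0.31 ± 0.08 (adjusted p = 0.130), while in the other 3 backgrounds it lay between -0.05 and 0.005.

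**Figure D3:**
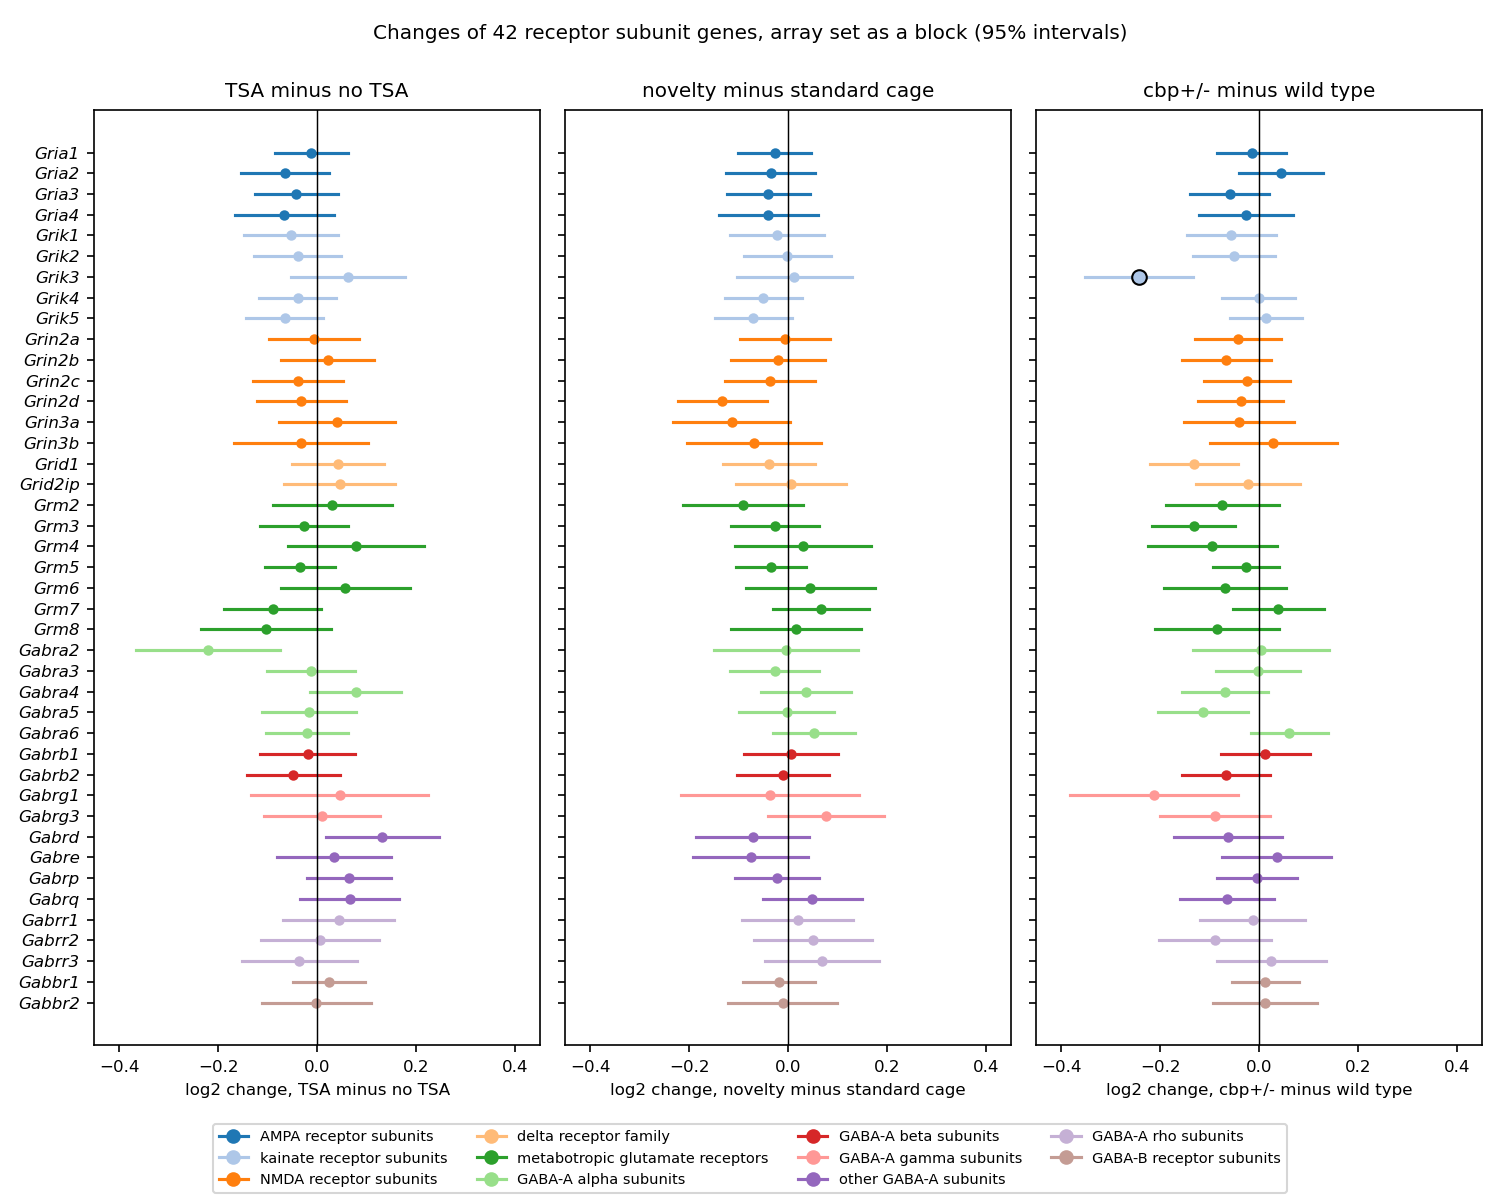
Points are log2 changes of the 42 genes in the fit that blocks on array set, and bars are their 95% intervals, for TSA minus no TSA, novelty minus standard cage and cbp+/- minus wild type, each averaged over the other conditions. Colour marks the receptor group, and the 1 black-ringed point, Grik3 in the genotype comparison (-0.24), passed an adjusted p of 0.05. The other points lie between -0.22 and 0.13.

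The second comparison asked whether 1 h of novelty changed these transcripts. No receptor subunit gene passed in the averaged comparison in either fit, against 0.191% of all genes without the block and 0.476% with it. At an unadjusted p of 0.05 there were 0 of the 42 without the block, against 3.2% of all genes, and 1 (2.38%) with it, against 8.21%. That gene was Grin2d, an NMDA subunit gene typical of interneurons in the adult hippocampus. It changed by -0.13 ± 0.04 with the block (adjusted p = 0.273) and by -0.07 ± 0.11 without. Grin2d was lower after novelty in 11 of 12 within-set pairs, as was Grik5, and Grm2 was lower in 10 of 12. The mean difference of Grin2d was -0.15, -0.09 and -0.16 in sets 2, 3 and 4. That of Grik5 was 0.002 in set 4 and that of Grm2 was 0.007 in set 2, so neither had 1 sign throughout. The share of all genes with such pair counts was not computed. With the block all 42 intervals lay within a 1.2-fold change, as did 95.6% of all, and 29 of 42 did without it.

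With the block 28 of the 42 genes were lower after novelty and 14 higher, with a median of -0.02 against 0.001 over all genes. All 6 measured NMDA genes and all 4 AMPA genes were among the lower, by medians of -0.05 and -0.04. Grin2c, Grin2d, Grin3a, Gria1 and Gria4 had negative mean differences in each of sets 2, 3 and 4, while Grin2a, Grin2b, Grin3b, Gria2 and Gria3 did not. Without the block 5 of the 6 NMDA genes and all 4 AMPA genes were lower. The standard-cage side of that fit includes the naive arrays, in which the AMPA genes were highest. Gria3, an AMPA subunit gene, had the smallest p without the block, with a change of -0.11 ± 0.06, and stood at -0.04 ± 0.04 with it. Grin3a, whose subunit lowers the calcium flow of NMDA receptors, changed by -0.11 ± 0.06 (adjusted p = 0.623). Grin2a and Grin2b changed by -0.01 ± 0.04 and -0.02 ± 0.05. The 3 rho genes were higher, with a median of 0.05. Gabra2 and Gabra5 changed by -0.005 ± 0.071 and -0.003 ± 0.047, and Gabbr1 and Gabbr2 by -0.02 ± 0.04 and -0.01 ± 0.05. Both GABA-B genes turned to the higher side without the block, with a median of 0.03.

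Single novelty contrasts held no receptor subunit gene that passed, against 0.0401% of all genes in at least 1 of 4 without the block and 0.16% with it. At an unadjusted p of 0.05 the counts were 0 of 42 against 5.62% without the block, and 7 (16.7%) against 16.3% with it. The smallest p without the block fell to Grid2ip in cbp+/- vehicle mice (-0.19 ± 0.13), Grin2b in cbp+/- TSA mice (-0.21 ± 0.12), Gabrr2 in wild-type vehicle mice (0.21 ± 0.11) and Gabrg3 in wild-type TSA mice (0.27 ± 0.18). Adjusted p was near 1 in all 4.

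The third comparison asked how cbp+/- mice differed from their littermates. One receptor subunit gene, Grik3, passed in the averaged comparison with array set as a block, and none without it. In the background 0.662% of all genes passed with the block, against 1 of the 42 (2.38%), and 0% without it. Under an unadjusted p of 0.05 with the block were 5 of the 42 (11.9%), equal to the 11.9% of all genes, and 0 without it, against 2.6%. In 31 of 42 genes the level was lower in cbp+/- mice and in 11 higher, with a median of -0.04 against -0.005 over all genes. With the block 40 of 42 intervals lay within a 1.2-fold change, the exceptions being Grik3 and Gabrg1.

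Grik3 encodes the kainate receptor subunit GluK3, which in rodents is found presynaptically at hippocampal mossy fibres. Replicates 1 to 3, from sets 2, 3 and 4, had 8.04, 7.58 and 7.25 in cbp+/- novelty TSA mice, against 8.26, 7.71 and 7.70 in wild type. With TSA in the standard cage they had 8.19, 7.67 and 7.17 in cbp+/-, against 8.15, 7.74 and 7.70 in wild type. With novelty and vehicle they had 8.03, 7.47 and 7.22 in cbp+/-, against 8.46, 7.74 and 7.38 in wild type. The vehicle controls had 8.26, 7.47 and 6.92 in cbp+/- and 8.23, 7.68 and 7.52 in wild type, and the naive controls 7.36 and 7.14 in cbp+/- and 7.49 and 7.38 in wild type. The genotypes overlapped over all arrays, at 6.92 to 8.26 with a median of 7.47 in cbp+/- and 7.38 to 8.46 with a median of 7.71 in wild type. Within sets the cbp+/- array was the lower in 10 of 12 pairs. Grid1 was lower in 11 of 12 such pairs and Gabrg1 in 10 of 12, and neither passed. The share of all genes with such counts was not computed.

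In the limma fit with the block Grik3 fell by 0.24 ± 0.05 in cbp+/- mice (adjusted p = 0.0279, 95% interval -0.35 to -0.13). Without the block the change was equal, -0.24 ± 0.15, and the adjusted p was 0.999956. The mean difference within sets was -0.14 in set 2, -0.17 in set 3 and -0.44 in set 4. Without set 4 it stood at -0.17 (adjusted p = 0.305) and without set 3 at -0.28 (0.141), and with the naive arrays left out at -0.25 (0.0538). It also lost the call without any of 6 single arrays: replicate 3 of cbp+/- novelty TSA, cbp+/- TSA, cbp+/- novelty, wild-type novelty TSA or wild-type TSA, or wild-type novelty replicate 1. Over the 28 fits that each left out 1 array the change was -0.27 to -0.21, with adjusted p of 0.0117 to 0.0742. By condition it was -0.27 ± 0.11 with novelty and TSA, -0.19 ± 0.11 with TSA, -0.28 ± 0.11 with novelty and -0.23 ± 0.09 in controls, and no interaction passed. All 4 other kainate genes lay between -0.06 (Grik1) and 0.01 (Grik5).

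Markers of cell types differed with genotype in both directions in the same fit, but every marker called was lower in cbp+/- mice. All 8 astrocyte markers were lower in cbp+/- mice, with a median of -0.11, and Gfap was called at -0.28. The mean deviation of this list ran between -0.32 and 0.19 in cbp+/- arrays and between -0.16 and 0.28 in wild-type arrays. Of 7 pyramidal neuron markers 5 were lower, with a median of -0.11, and Wfs1, a marker of CA1 pyramidal neurons, was called at -0.41. Of 7 dentate granule neuron markers 5 were lower, with a median of -0.04, and Tdo2 was called at -0.29. Of 8 endothelial and meningeal markers 5 were higher and 3 lower, with a median of 0.04, and Dcn was called at -0.31. Oligodendrocyte markers were lower in 6 of 7 cases (median -0.09) and oligodendrocyte precursor markers in 4 of 4 (median -0.04). Interneuron markers were lower in 7 of 10 cases and thalamic and habenular markers in 6 of 7 (median -0.06 in each list). Cerebellar granule markers were lower in 3 of 5 cases (median -0.02), and no marker of these lists was called. Microglia markers were higher in 6 of 7 cases (median 0.03) and choroid plexus markers in 8 of 10 (median 0.07), with 0 called in either list. Their part in the change of Grik3 was not tested.

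The other 4 genes under an unadjusted p of 0.05 were lower in cbp+/- mice too. Gabrg1, a GABA-A gamma subunit gene that glial cells also express, changed by -0.21 ± 0.08 (adjusted p = 0.274). Grm3, a group II receptor found in neurons and astrocytes, changed by -0.13 ± 0.04 (adjusted p = 0.149) and Grid1, the delta1 subunit, by -0.13 ± 0.04 (0.175). Gabra5 changed by -0.11 ± 0.04 (adjusted p = 0.277). Of the 7 metabotropic genes 6 were lower, while both GABA-B genes were higher by 0.01. Gria1 and Gria2 changed by -0.02 ± 0.03 and 0.04 ± 0.04, and Grin2a and Grin2b by -0.04 ± 0.04 and -0.07 ± 0.04.

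In the single conditions no receptor subunit gene passed for genotype, against 0% of all genes without the block and 0.00502% with it in at least 1 condition. At an unadjusted p of 0.05 there were 2 of 42 (4.76%) against 5.45% without the block, and 7 (16.7%) against 22.6% with it. The smallest p without the block fell to Grin2b with novelty and TSA (-0.25 ± 0.12), Gabrr2 with TSA (-0.18 ± 0.13), Gabrp with novelty (0.16 ± 0.10) and Gabrg1 in controls (-0.42 ± 0.20), with adjusted p near 1. In controls Gabrg1 averaged 6.18 ± 0.15 in cbp+/- arrays and 6.60 ± 0.35 in wild-type arrays (SD, n = 5 each).

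No interaction passed in any receptor subunit gene, and 0% of all genes passed in either fit. At an unadjusted p of 0.05 in at least 1 of 3 interactions there was 1 of 42 (2.38%) against 4.38% of all genes without the block, and 4 (9.52%) against 14.9% with it. Without the block the smallest p was that of Gabrp for genotype by TSA (-0.19 ± 0.10), Grin2b for genotype by novelty (-0.24 ± 0.11) and Gabrr3 for novelty by TSA (0.20 ± 0.12).

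The fourth comparison set the 6 vehicle-injected controls against the 4 naive controls, with both genotypes averaged. The 4 naive arrays are array set 1, so injection and array set cannot be told apart here. In all, 3 genes of 3 receptor types were lower in the vehicle arrays and passed: Gria3 of the AMPA, Grik2 of the kainate and Grm7 of the metabotropic receptors. These 3 are 7.14% of the 42 genes, against 2.41% of all genes. Before adjustment 10 of the 42 (23.8%) were under 0.05, against 14.4% of all genes. Of the 42 genes 26 were lower and 16 higher in the vehicle arrays, with a median of -0.05 against 0.01 over all genes.

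Gria3, the GluA3 subunit gene, had 9.86, 10.07 and 10.01 in vehicle arrays of cbp+/- mice and 9.88, 9.99 and 9.99 in those of wild type, against 10.23 and 10.21 in naive arrays of cbp+/- mice and 10.41 and 10.33 in those of wild type. It fell by 0.33 ± 0.07 in the vehicle arrays (limma, adjusted p = 0.0108). Grik2, the GluK2 subunit of mossy fibre kainate receptors, had 9.01, 9.002 and 8.82 in cbp+/- and 9.12, 8.82 and 8.89 in wild-type vehicle arrays. Its naive arrays had 9.31 and 9.17 in cbp+/- and 9.47 and 9.32 in wild type. It fell by 0.37 ± 0.08 (adjusted p = 0.0187).

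Grm7, a presynaptic group III receptor, had 8.52, 8.83 and 8.38 in cbp+/- and 8.35, 8.62 and 8.52 in wild-type vehicle arrays. Its naive arrays had 8.935 and 8.85 in cbp+/- and 8.93 and 8.84 in wild type. It fell by 0.35 ± 0.09 (adjusted p = 0.0492). For all 3 genes every vehicle array lay below every naive array. This held for 7 of the 42 genes, the others being Gria2, Gria4, Grm3 and Gabrb1. No other member was without overlap, so the groups did not overlap, in either direction, in 16.7% of the 42, against 8.88% of all genes.

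By receptor, all 4 AMPA genes were lower in the vehicle arrays, with a median of -0.31, and 1 passed. Gria1 differed by -0.29 ± 0.15, and its 6 vehicle arrays (10.81 to 11.35) overlapped the naive ones (11.29 to 11.40). Gria2 differed by -0.23 ± 0.07 (adjusted p = 0.0888) and Gria4 by -0.34 ± 0.13. All 5 GABA-A alpha genes were lower, with a median of -0.19 and 0 called, as were both beta and both gamma genes. Gabrd, Gabre, Gabrp and Gabrq were higher in 4 of 4 cases, with a median of 0.09, and so were both GABA-B genes. The 6 NMDA genes had a median near 0. Grik5 differed most of the higher genes, by 0.45 ± 0.24 (adjusted p = 0.416), and Gabra3 most of the lower, by -0.39 ± 0.25 (0.557). The vehicle arrays of Grik5 spread over 8.65 to 9.59, on both sides of its naive arrays at 8.80 to 8.85.

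**Figure D4:**
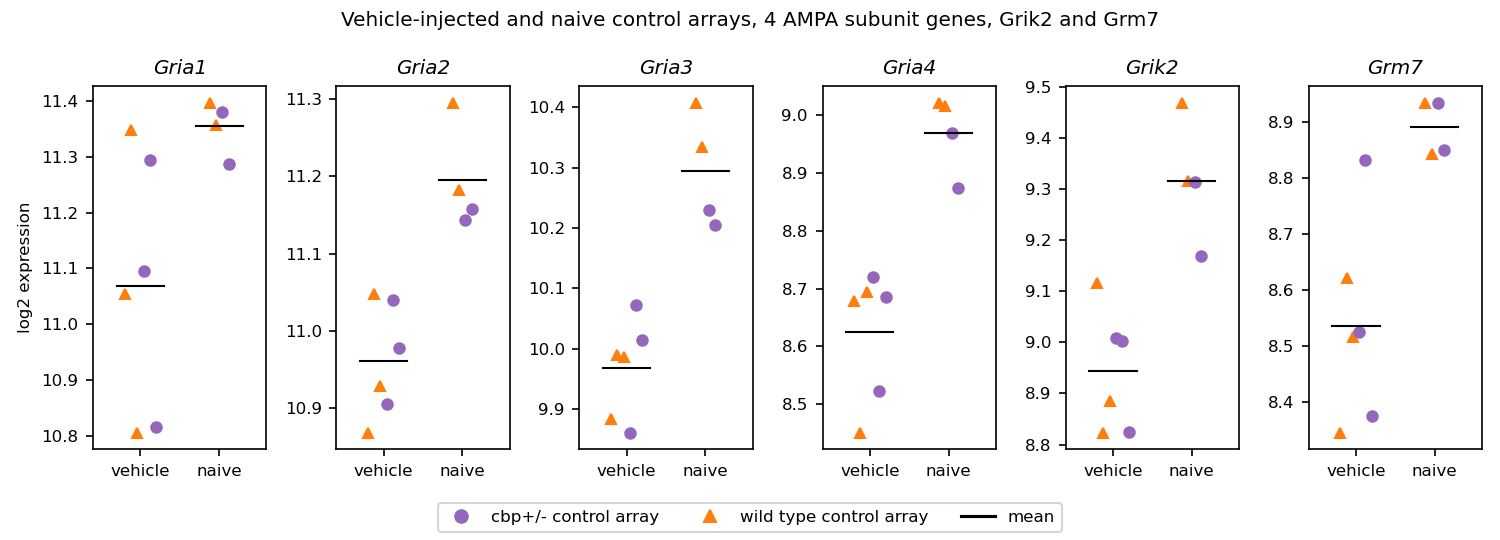
Log2 level of 4 AMPA receptor genes, Grik2 and Grm7 in the 6 vehicle-injected and the 4 naive control arrays, with symbols for genotype and a line at each mean. In Gria2, Gria3, Gria4, Grik2 and Grm7 every vehicle array lies below every naive array, and in Gria1 they overlap.

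Marker lists were set beside the same contrast, and no marker of a cell type named here passed. Of 7 pyramidal neuron markers 6 were higher in the vehicle arrays, with a median of 0.37. The mean deviation of this list was -0.177 to 0.376 in the vehicle arrays and -0.248 to -0.180 in the naive arrays, without overlap. All 7 oligodendrocyte markers were higher, with a median of 0.18. Of 8 endothelial and meningeal markers 6 were lower, with a median of -0.13, and the mean deviation of this list did not overlap, at -0.03 to 0.18 in the vehicle arrays and 0.19 to 0.30 in the naive arrays. The activity genes were higher in 6 of 6 cases, with 1 called. Without the 3 arrays of raised choroid plexus markers, of which cbp+/- control replicate 3 is a vehicle control, Gria3 (-0.30) and Grik2 (-0.39) passed and Grm7 did not, an alternative chosen after seeing the data. None of the 3 genes passed without wild-type control replicate 1, nor without cbp+/- control replicate 1 or 2, all naive. The part of these markers in the change of the receptor genes was not tested.

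Proteins that bind, carry or supply these receptors were read from lists chosen with the receptor genes. Among 14 auxiliary proteins of AMPA and kainate receptors 1 rose after TSA with the block, Cnih3, a cornichon that slows AMPA receptor closure, by 0.21 ± 0.05 (adjusted p = 0.0111). This is 1 of 14 where 4.51% of all genes passed. Without the block it did not pass, at 0.16 ± 0.10. Its arrays overlapped, at 7.55 to 8.39 with TSA and 7.38 to 8.06 without. Among 25 postsynaptic scaffolds 1 rose with novelty, Homer1, which ties group I metabotropic receptors to the scaffold and has a short form induced by activity. It averaged 9.24 ± 0.27 with novelty (SD, n = 12) and 8.79 ± 0.15 in the standard cage (n = 16), a rise of 0.48 ± 0.05 with the block (adjusted p = 9.62e-07), where 0.476% of all genes passed. Grm5, whose receptor Homer1 binds, changed by -0.03 ± 0.03 with novelty. Of 9 transporters and 6 enzymes of glutamate and GABA none passed for TSA, novelty or genotype.

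Several subunit genes are neighbours on the chromosomes, so their values can be set side by side. On chromosome 5, Gabrg1 lies next to Gabra2, and Gabra4 next to Gabrb1. After TSA with the block these 4 genes changed by 0.05 ± 0.09 (Gabrg1), -0.22 ± 0.07 (Gabra2), 0.08 ± 0.04 (Gabra4) and -0.02 ± 0.05 (Gabrb1). Gabra2 was the only one of the 4 whose 95% interval excluded 0, and differences between the genes were not tested.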

How the data were processed

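Hippocampal RNA of 28 pools of mice was measured on 28 arrays. The values are log2 expression as deposited by the authors, 1 per transcript cluster, made with RMA per the submitters' processing notes and, per the labels' protocols, in GeneSpring GX 11. For RMA no version, and for the arrays no genome build, is given in the sources used here. Normalization of this kind makes arrays alike, which can hide a change common to most transcripts.

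Of 35556 rows, 21789 had 1 gene symbol, 1621 several and 12146 none. The row with the highest mean was kept per gene, which left 19938 genes. Groups came from the sample titles. Tests used limma 3.58.1 (R 4.3.3), all 28 arrays in 1 fit, two-sided, with Benjamini-Hochberg adjustment over all genes and a threshold of 0.05, without and with array set as a block. Vehicle against naive controls used a fit that kept them as groups of their own. The averaged TSA contrast, without and with the block, was also run on simulated data with independent noise and no set effect. That run does not test the array sets or the other comparisons.

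The members and lists, and the array sets, were chosen with earlier results of these data known. Named genes were those passing an averaged comparison, the largest TSA change of each receptor list, fixed hippocampal subunits, the smallest p of each other comparison, and genes of other synapse lists passing for TSA or novelty. Genes under an unadjusted p of 0.05, set profiles and chromosome neighbours were named after their values were seen. Alternatives were normalization, array weights, an intensity trend, rows per gene, a dim filter, controls, blocks and arrays left out. Minus-strand promoters were checked against 1754 overlapping windows, all reverse complements. The number of arrays limits the precision.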

Additional observations from a re-analysis of the deposited data

Results flagged for a closer look

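In 3 of 84 tests of a single control array against the other 4 of its group (5 arrays, receptor genes in both genotypes) 1 array stood apart by Dixon's criterion of 0.71. Chance gives about 1 in 20. In cbp+/- control replicate 4 Gabra3 was 8.26, while the other arrays of the group had 8.87 to 9.06, and this array is in set 3, where Gabra3 was low in every group. In cbp+/- control replicate 3 Grin3b was 4.22, while the others had 4.70 to 4.84, and this is an array with raised choroid plexus markers. In cbp+/- control replicate 1 Grm8 was 6.90, while the others had 6.60 to 6.67.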

How the results depend on the processing

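The counts of receptor subunit genes past the threshold, 0 for TSA, 0 for novelty and 0 for genotype without a block, stayed at 0 for novelty under every alternative run. For TSA the count was 2 with the label number as replicate block (Gabra2 at -0.29 and Grik2 at -0.18) and 1 with array quality weights (Gabrd at 0.25). The label numbers do not pair the samples throughout: deviations of same-numbered TSA and novelty arrays correlated at 0.52 to 0.80, but those of controls with same-numbered arrays at -0.58 to 0.23. With array set as a block the TSA count was 0 and ran between 0 and 1 when single arrays were left out. That 1 was Gabra2, without wild-type control replicate 5 (adjusted p = 0.0246), wild-type TSA replicate 1 (0.0171) or cbp+/- novelty replicate 1 (0.0346). For genotype the count was 1 with array set as a block (Grik3). Leaving out set 3, set 4 or the naive arrays (set 1) made it 0, and between 0 and 1 when single arrays were left out. Grik3 then kept a change of -0.27 to -0.21 and passed in 22 of 28 cases, with adjusted p of 0.0117 to 0.0742. It did not pass without wild-type TSA, wild-type novelty TSA, cbp+/- TSA, cbp+/- novelty or cbp+/- novelty TSA replicate 3, nor without wild-type novelty replicate 1. For vehicle against naive controls the count of 3 was 1 with an intensity trend (Gria3) and 0 to 4 when single control arrays were left out, and 0 came without wild-type control replicate 1 or cbp+/- control replicate 1 or 2, which leaves 1 naive array of that genotype. Over all genes the TSA count of 132 was 899 with array set as a block, 567 with the replicate block, 461 with array weights, 87 without the choroid-marked arrays, 69 without dim genes and 48 with vehicle controls only. For novelty the count of 38 was 95, 74 and 73 under the first 3 of these and 23 under the last, and for genotype the count of 0 was 132 with array set as a block and 8 with array weights. With the block, leaving out a set gave 247 to 532 for TSA and 14 to 139 for genotype. For vehicle against naive controls the count of 480 was 301 with an intensity trend, 236 without the choroid-marked arrays and 112 to 451 without single control arrays. These causes were not tested. No change that passed reversed under the alternatives run, but between the fits without and with array set as a block the sign turned in 5 of the 42 genes for TSA and 9 for novelty, and in 0 for genotype, and none of these passed in either fit. The values used hold no signal over background, so which genes were detected is not known.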
